A study of Mus musculus with 9 samples.

Results

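The transcript levels of 10 genes for cytosolic heat shock proteins were examined in INS-p25OE mouse pancreatic neuroendocrine tumors and in normal mouse islets. The genes were chosen by name, as Hspa1a, Hspa1b, Hspa8, Hspb1, Hsph1, Dnaja1, Dnajb1, Hsp90aa1, Hsp90ab1 and Bag3, and all 10 were found among the 54347 genes listed and passed the filter on low values, as did 15532 genes in all. Bi-transgenic INS-p25OE mice carry Ins2-rtTA, which is driven by the insulin promoter and so acts in β-cells, and tetOp-p25GFP, which encodes p25, the fragment of p35 that aberrantly activates Cdk5. The animals received doxycycline in drinking water from weaning and were kept on a C57BL/6 background. The libraries came from 3 functional, hormone-secreting tumors (M1 to M3), from 3 non-functional tumors (M4 to M6) and from 3 islet samples of C57BL/6 mice, NI1, NI2 and NI3. The division into functional and non-functional tumors follows the study's text, since the labels only add a word to the titles of M1 to M3. M2 came from a female and the others from males, and ages are not given in the sources used here. The study's methods describe sample sizes as biological rather than technical replicates. The animal behind each library is not given, so p-values measure the spread between these samples.

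Heat shock proteins bind unfolded or newly made proteins in the cytosol. Hsp70 proteins bind and release clients in cycles driven by ATP, J-domain proteins such as Dnaja1 and Dnajb1 deliver clients and stimulate the ATPase, and nucleotide exchange factors such as Hsph1 and Bag3 let the client go. Hsp90 proteins act later on a more folded set of clients that includes many kinases and steroid receptors, and small heat shock proteins such as Hspb1 hold unfolded proteins without ATP. Cells use some of these genes constantly (Hspa8, Hsp90ab1), while others (Hspa1a, Hspa1b) are mostly silent until heat, toxic metals or another protein-damaging stress activates heat shock factor Hsf1, which binds inverted GAA repeats, the heat shock elements, in their promoters. Secretory cells such as β-cells also fold a large load of protein in the endoplasmic reticulum, with paralogs of the same families.

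Sequences just before the start sites are shown because these promoters are the best known targets of Hsf1 and because Hspa1a and Hspa1b are near copies of each other. RefSeq (GRCm38.p6) gave a window of 250 bases before to 50 bases after a start site for 7 of the 10 genes, and Hspa8, Hsp90aa1 and Hsp90ab1 had no entry. The 250 bases before the start are printed 5′ to 3′ on the gene's strand, and capitals mark each match to GAANNTTC or TTCNNGAA, the letters of 2 adjoining inverted units, each of which reads the same on both strands.
Hspa1a (chr17:34972157-34972406, strand minus): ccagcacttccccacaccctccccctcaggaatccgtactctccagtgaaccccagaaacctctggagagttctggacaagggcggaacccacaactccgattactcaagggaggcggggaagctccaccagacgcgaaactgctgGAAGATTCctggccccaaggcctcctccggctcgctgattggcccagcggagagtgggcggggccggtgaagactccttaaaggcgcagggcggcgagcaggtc
Hspa1b (chr17:34959239-34959488, strand minus): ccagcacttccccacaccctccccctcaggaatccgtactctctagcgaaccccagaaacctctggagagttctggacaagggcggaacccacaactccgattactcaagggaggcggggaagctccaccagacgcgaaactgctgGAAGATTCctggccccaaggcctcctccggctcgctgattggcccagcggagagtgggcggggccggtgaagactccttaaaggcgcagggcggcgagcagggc
Hspb1 (chr5:135887669-135887918, strand plus): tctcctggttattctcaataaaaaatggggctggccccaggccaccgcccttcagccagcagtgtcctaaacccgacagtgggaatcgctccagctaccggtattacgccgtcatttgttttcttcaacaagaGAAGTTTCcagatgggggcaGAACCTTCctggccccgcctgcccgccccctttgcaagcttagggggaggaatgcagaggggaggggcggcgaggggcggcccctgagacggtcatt
Hsph1 (chr5:149636337-149636586, strand minus): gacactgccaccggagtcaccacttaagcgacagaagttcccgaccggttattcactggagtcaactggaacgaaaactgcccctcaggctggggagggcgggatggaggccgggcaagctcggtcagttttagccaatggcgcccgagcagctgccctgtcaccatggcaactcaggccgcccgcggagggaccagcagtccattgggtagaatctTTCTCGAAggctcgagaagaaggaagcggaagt

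The Hspa1a and Hspa1b stretches were identical at 247 of 250 bases (98.8%), and each held 1 match, which began 104 bases before the start. Hspb1 held 2 matches, at 117 and 97 bases before the start. In the Hsph1 window 1 match lay 33 bases before the start, and overlapping matches that began 36 and 41 bases after it made up a run of 3 units. Over whole windows, 6 of the 7 genes held at least 1 match, including Dnaja1 (124 bases before one of its starts) and Bag3 (42 bases after the start), against 17% of the 27025 genes with a window. At least 2 matches were present in 2 of the 7 genes and in 2.21% of all genes. The run of 3 units, searched as GAANNTTCNNGAA or TTCNNGAANNTTC and therefore overlapping the shorter match, was present in 1 of the 7 and in 0.662% of all genes. No match was present in the Dnajb1 windows, which says only that these letters are not there. A match is a description of the letters and was not tied to any measured binding.

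The deposited values are estimated read counts per gene, with library totals from 36468280 to 63637175. They were scaled by TMM and are given as scaled counts relative to the library total (CPM), on which 3 counts stood for 0.0425 to 0.119 CPM. All 9 β-cell markers (Ins1, Ins2, Iapp, Mafa, Pdx1, Slc2a2, G6pc2, Ucn3 and Nkx6-1) were above 0 in every library, with a summed level of 18400 to 117000 CPM in the tumors, 122000 in NI1, 328000 in NI2 and 365000 in NI3. Mitochondrial genes held 32.1% of the counts in M4 and 1.76% to 8.41% in the other libraries. Cdk5r1, the gene for p35, was at 149 to 401 CPM in the tumors and at 18.4 and 12.5 CPM in NI2 and NI3, but at 280 CPM in the remaining islet sample. Because of this mismatch with its label, that sample is referred to as the library labelled NI1. Whether reads of the transgene were counted under Cdk5r1 is not stated in the sources used here. Over all 15532 genes tested, the median absolute difference in log2(CPM + 1) between the library labelled NI1 and tumor M6 was 0.11, which was lower than that between NI2 and NI3 (0.20) and than the 0.28 to 0.61 of the other 34 pairs of libraries. Results against the islets are therefore also given without the library labelled NI1.

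The inducible Hsp70 genes Hspa1a and Hspa1b were the heat shock genes with the greatest difference between tumors and islets. They were nearly silent in the tumors, abundant in NI2 and NI3, and close to the tumors in the library labelled NI1. Hspa1a (ENSMUSG00000091971, GRCm38 chromosome 17, 34969190 to 34972156) was at 2.20, 1.64 and 3.89 CPM in M1, M2 and M3 and at 5.11, 2.73 and 1.60 CPM in M4 to M6. The islet levels were 6.41 CPM in the library labelled NI1, 70.2 CPM in NI2 and 92.2 CPM in NI3. All 6 tumors thus lay below all 3 islet libraries, which was so for 3.17% of the genes tested and for no other of the 10 heat shock genes. Behind these levels stood 91 to 214 counts per tumor and 374, 2878 and 3720 counts in the islet libraries. The mean was 2.86 ± 1.39 CPM (SD, n = 6) in tumors and 56.3 ± 44.6 CPM (n = 3) in islets, 19.7-fold higher in the islets. Hspa1a fell in tumors by 4.31 on the log2 scale (standard error 0.65, adjusted p = 0.0309, edgeR's quasi-likelihood test). It was the only one of the 10 below the adjusted threshold of 0.05, which 0.258% of all genes tested passed in this direction and 0% in the other. When the library labelled NI1 was left out, the log2 fold change of Hspa1a was -4.84 (standard error 0.41, adjusted p = 0.00119, edgeR). When M1, M2, M3, M5, NI2 or NI3 was left out instead, its adjusted p lay above 0.05 (0.0842 to 0.236, edgeR). With all 9 libraries it was 0.0807 by limma-trend.

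Hspa1b (ENSMUSG00000090877, chromosome 17, 34956436 to 34959238) lies next to Hspa1a and encodes nearly the same protein. Its level was 3.41, 2.73 and 4.87 CPM in M1 to M3 and 7.09, 3.86 and 1.11 CPM in M4 to M6, against 4.80 CPM in the library labelled NI1, 73.7 CPM in NI2 and 81.6 CPM in NI3. M3 and M4 lay above the library labelled NI1, so the groups overlapped, while NI2 and NI3 lay far above every tumor. The log2 fold change in tumors was -3.80 (standard error 0.72, adjusted p = 0.0732, edgeR), and without the library labelled NI1 it was -4.35 (standard error 0.48, adjusted p = 0.00253, edgeR). Because 55.8% of the 75-base stretches of Hspa1b, the length of a read, occur unchanged in Hspa1a, the split of reads between the pair is uncertain. Their sum was 5.60, 4.37 and 8.76 CPM in M1 to M3, 12.2, 6.58 and 2.71 CPM in M4 to M6, and 11.2, 143.9 and 173.8 CPM in NI1, NI2 and NI3. The sum does not depend on that split, and it placed the library labelled NI1 inside the range of the tumors and NI2 and NI3 21.5 and 25.9 times above the mean of the tumors. Its log2 fold change in tumors was -4.04 (standard error 0.68, adjusted p = 0.0496, edgeR), so the adjusted p passed the threshold only narrowly. With the library labelled NI1 left out, the log2 fold change of the sum was -4.57 (adjusted p = 0.0014, edgeR). The adjusted p of the sum ranged from 2.84e-07 to 0.317 over 16 alternatives, and its log2 fold change from -4.57 to -3.44.

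**Figure D1:**
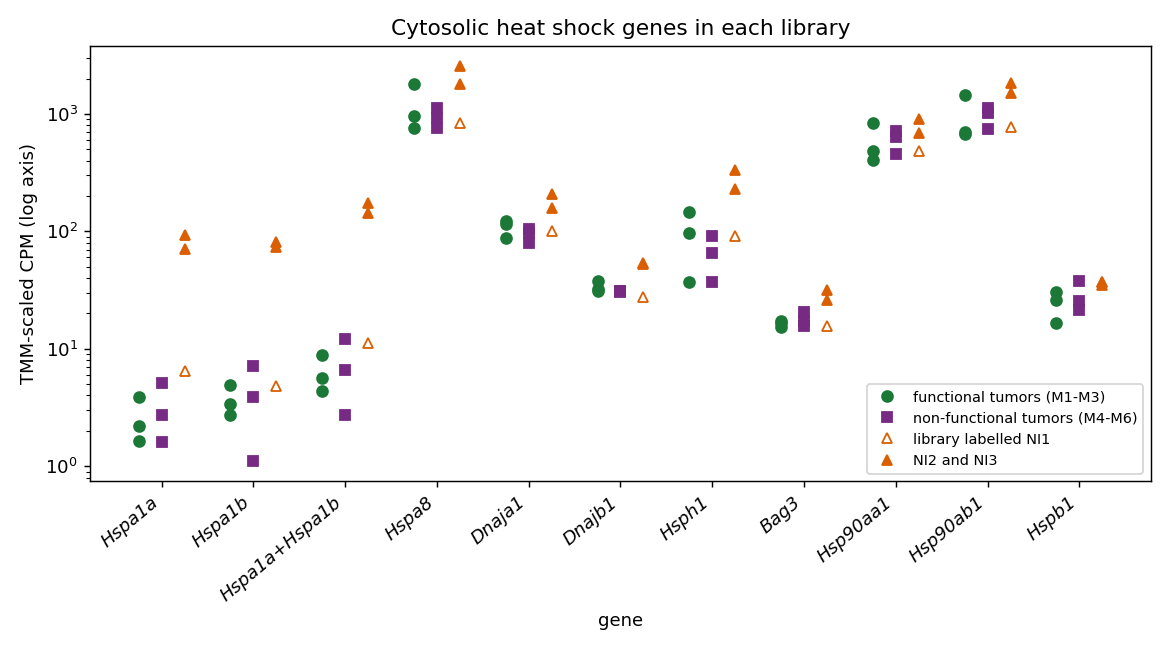
TMM-scaled CPM (log axis) of the 10 heat shock genes and of Hspa1a plus Hspa1b in each library, with circles for functional tumors, squares for non-functional tumors, an open triangle for the library labelled NI1 and filled triangles for NI2 and NI3. The filled triangles of the Hspa1a and Hspa1b sum, at 143.9 and 173.8 CPM, stand apart from the tumors at 2.71 to 12.2 CPM, whereas the open triangle, at 11.2 CPM, is within them.

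Hspa8 (ENSMUSG00000015656, chromosome 9, 40800984 to 40810087), the constitutive Hsp70 that also strips clathrin from coated vesicles, was abundant in all libraries. It was at 953.6, 1782 and 751.8 CPM in M1 to M3, at 918.3, 1120 and 764.6 CPM in M4 to M6, and at 840.4, 1813 and 2572 CPM in NI1, NI2 and NI3. NI2 and NI3 lay above every tumor, but NI2 exceeded M2, the highest tumor, only 1.02-fold. The log2 fold change in tumors was -0.73 (standard error 0.39, adjusted p = 0.322, edgeR) and without the library labelled NI1 -1.07 (standard error 0.37, adjusted p = 0.108, edgeR), so neither fit called it. Hspa8 shares 32.8% of its 75-base stretches with 12 other annotated genes, and its count is uncertain to that degree.

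The J-domain genes Dnaja1 and Dnajb1, whose products deliver clients to Hsp70, varied little among tumors and were higher in NI2 and NI3. Dnaja1 (ENSMUSG00000028410, chromosome 4, 40722150 to 40737149) was at 122, 116 and 87.2 CPM in M1 to M3, at 97.7, 79.5 and 103.9 CPM in M4 to M6, and at 102, 159 and 207 CPM in NI1, NI2 and NI3. Dnajb1 (ENSMUSG00000005483, chromosome 8, 83608193 to 83612653) was at 32.0, 37.9 and 31.1 CPM in M1 to M3, at 31.1, 31.3 and 30.2 CPM in M4 to M6, and at 27.7, 52.3 and 53.7 CPM in NI1, NI2 and NI3. For both genes every tumor was below NI2 and NI3, and the library labelled NI1 was among the tumors for Dnaja1 and below all of them for Dnajb1. The log2 fold changes in tumors were -0.63 for Dnaja1 (standard error 0.23, adjusted p = 0.189, edgeR) and -0.47 for Dnajb1 (standard error 0.21, adjusted p = 0.258, edgeR). Without the library labelled NI1 both were called lower, Dnaja1 with -0.86 (standard error 0.21, adjusted p = 0.0378) and Dnajb1 with -0.72 (standard error 0.17, adjusted p = 0.0317). Dnajb1 had the narrowest spread of the 10 genes among tumors, with the highest tumor 1.25-fold over the lowest, while that ratio was 6.4 for Hspa1b.

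Among the nucleotide exchange factors, Hsph1, an Hsp110 protein that helps Hsp70 to dissolve aggregates, differed most after the inducible Hsp70 pair. Hsph1 (ENSMUSG00000029657, chromosome 5, 149614287 to 149636376) was at 96.3, 146 and 37.3 CPM in M1 to M3, at 65.4, 36.9 and 91.2 CPM in M4 to M6, and at 90.4, 228 and 334 CPM in NI1, NI2 and NI3. Tumors differed among themselves by up to 3.96-fold, and all were below NI2 and NI3. Its log2 fold change in tumors was -1.46 (standard error 0.48, adjusted p = 0.168, edgeR) with all islets and -1.84 (standard error 0.46, adjusted p = 0.042, edgeR) without the library labelled NI1. Bag3 (ENSMUSG00000030847, chromosome 7, 128523616 to 128546981), which links Hsp70 to small heat shock proteins and to autophagy, was at 17.3, 16.5 and 15.4 CPM in M1 to M3, at 20.6, 17.3 and 15.8 CPM in M4 to M6, and at 15.6, 26.1 and 31.6 CPM in NI1, NI2 and NI3. The tumors formed a narrow band, with the library labelled NI1 inside it and NI2 and NI3 above it. The log2 fold change of Bag3 was -0.51 (standard error 0.23, adjusted p = 0.246, edgeR), and -0.75 (standard error 0.20, adjusted p = 0.0484, edgeR) without the library labelled NI1. No 75-base stretch of Hsph1, Bag3 or Dnajb1 occurs in another annotated gene.

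The cytosolic Hsp90 genes and the small heat shock gene Hspb1 passed no test. Hsp90aa1 (ENSMUSG00000021270, chromosome 12, 110690605 to 110702728), the stress-inducible Hsp90, was at 478.3, 843.8 and 404.9 CPM in M1 to M3, at 635.2, 708.5 and 454.9 CPM in M4 to M6, and at 485.8, 693.1 and 904.6 CPM in NI1, NI2 and NI3. Hsp90ab1 (ENSMUSG00000023944, chromosome 17, 45567775 to 45573271), the constitutive Hsp90, was at 667.7, 1436 and 699.9 CPM in M1 to M3, at 1010, 1121 and 738.3 CPM in M4 to M6, and at 768.3, 1494 and 1827 CPM in NI1, NI2 and NI3. M2 and M5 exceeded NI2 for Hsp90aa1, while all tumors were below NI2 and NI3 for Hsp90ab1, by 1.04-fold in the closest case. The log2 fold changes in tumors were -0.24 (standard error 0.30, adjusted p = 0.683) and -0.53 (standard error 0.35, adjusted p = 0.418), and without the library labelled NI1 they were -0.45 (adjusted p = 0.412) and -0.82 (adjusted p = 0.175, edgeR). Hspb1 (ENSMUSG00000004951, chromosome 5, 135887919 to 135889563) was at 16.6, 30.5 and 25.8 CPM in M1 to M3, at 21.2, 25.7 and 37.6 CPM in M4 to M6, and at 36.9, 34.8 and 37.2 CPM in NI1, NI2 and NI3. The islet libraries were alike, and 5 of the 6 tumors lay below them while M6 was the highest library of all. The tumors changed by -0.47 on the log2 scale (standard error 0.24, adjusted p = 0.300, edgeR), and -0.46 without the library labelled NI1 (adjusted p = 0.335). Hsp90aa1 and Hspb1 share 42.8% and 46.4% of their 75-base stretches with other annotated genes, mostly Gm12346 and Hsp25-ps1.

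All 10 log2 fold changes were below 0, with a median of -0.58, where the median of all genes tested was 0.03. At an unadjusted p under 0.05, 5 of the 10 were lower in tumors and 0 higher, against 9.14% and 10.7% of all genes tested (edgeR). Without the library labelled NI1, the adjusted threshold was passed by 6 of the 10 as lower and 0 as higher, against 3% and 5.34% of all genes tested. These 6 were Hspa1a, Hspa1b, Hsph1, Dnaja1, Dnajb1 and Bag3, and the median over the 10 was then -0.84. All tumors were below both NI2 and NI3 for 8 of the 10 genes, the exceptions being Hsp90aa1 and Hspb1, and for 16.3% of all genes tested. In bulk tissue, fewer cells of a type and less RNA per cell cannot be told apart.

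**Figure D2:**
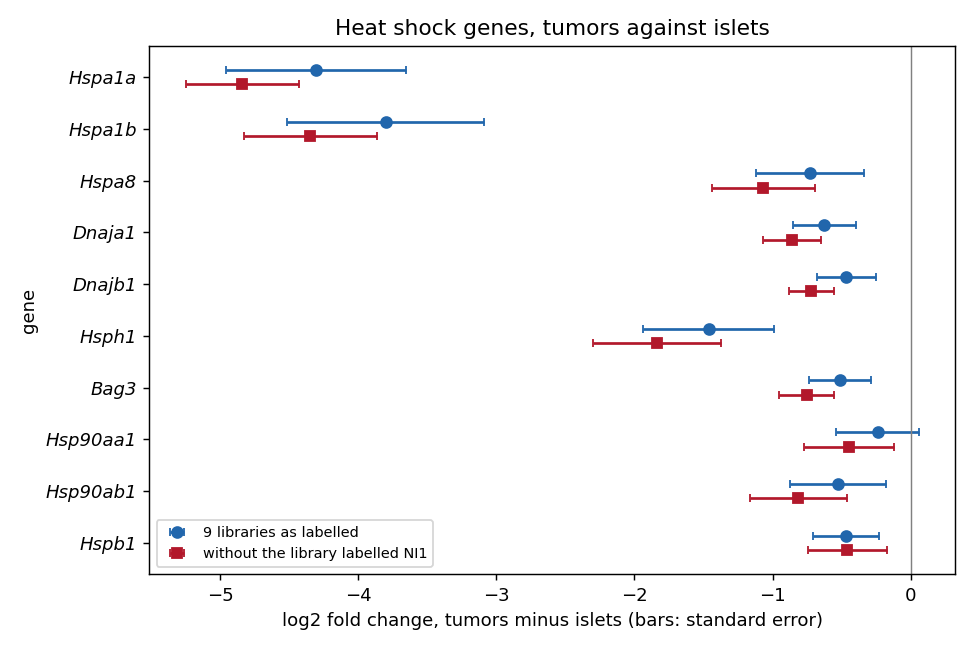
Log2 fold change of each heat shock gene in 6 tumors against the islets from edgeR, with bars for the standard error, from the 9 libraries as labelled (circles) and without the library labelled NI1 (squares). Hspa1a and Hspa1b lie at -4.84 to -3.80 in both fits and the other 8 genes between -1.84 and -0.24.

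The library labelled NI1 followed the tumors for most heat shock genes. It lay inside the range of the 6 tumors for 8 of the 10 genes, the exceptions being Hspa1a, where it was above, and Dnajb1, where it was below. Against M6, the tumor it resembled most over all genes, its level was 0.918 to 1.10 times as high for the 8 genes other than the inducible Hsp70 pair. Hspa1a and Hspa1b were 4.0 and 4.33 times higher in the library labelled NI1 than in M6, and their sum was 4.14 times higher. NI2 exceeded the mean of the tumors by 1.18-fold to 2.90-fold for those 8 genes and by 24.5-fold and 19.2-fold for Hspa1a and Hspa1b. NI3 exceeded it by 1.42-fold to 4.24-fold and by 32.2-fold and 21.2-fold, in the same order.

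Functional and non-functional tumors were compared to ask whether the heat shock genes separate the hormone-secreting tumors from the others. The means were 2.58 ± 1.17 CPM (SD, n = 3) in functional and 3.15 ± 1.79 CPM (n = 3) in non-functional tumors for Hspa1a, and 6.25 ± 2.26 and 7.17 ± 4.78 CPM for the sum with Hspa1b. For Hspa8 they were 1162 ± 546 and 934 ± 178 CPM, and for Hsph1 93.3 ± 54.5 and 64.5 ± 27.1 CPM. For each of these genes the values of the functional and non-functional tumors overlapped. The log2 fold changes of the 10 genes ran from -0.28 for Hspa1a (standard error 0.81, adjusted p = 0.933) to 0.53 for Hsph1 (standard error 0.58, adjusted p = 0.777), and that of the Hspa1 sum was -0.19 (standard error 0.84, adjusted p = 0.954, edgeR). None of the 10 passed the adjusted threshold, as for 0% of all genes tested, and 0 passed at an unadjusted p under 0.05 against 10.3% of all genes tested. With standard errors of 0.26 to 0.90 on the log2 scale, modest differences between the tumor groups were not detectable. M2 was the highest tumor for 5 of the 10 genes, Hspa8, Hsph1, Dnajb1, Hsp90aa1 and Hsp90ab1, and is also the only library from a female, so sex and tumor cannot be told apart there.

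Each tumor group was also set against the islets, and both comparisons share the islet libraries. In functional tumors the log2 fold changes were -4.45 for Hspa1a (standard error 0.91, adjusted p = 0.0783), -3.86 for Hspa1b (standard error 0.99, adjusted p = 0.113) and -1.22 for Hsph1 (adjusted p = 0.265, edgeR). In non-functional tumors they were -4.17, -3.74 and -1.76 (adjusted p = 0.332 for each, edgeR). None of the 10 passed in either comparison, where 0.431% and 0% of all genes tested were called lower. Without the library labelled NI1, Hspa1a and Hspa1b, 2 of the 10, were called lower in each, where 2.66% (functional) and 1.04% (non-functional) of all genes tested were.

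Per kilobase of annotated exon, which allows levels to be compared between genes, the tumors held most Hsp90ab1 (315 ± 101 CPM per kilobase, SD, n = 6), then Hspa8 (244 ± 89.3) and Hsp90aa1 (149 ± 43.4). The ranges of neighbours in this order overlapped. Hspb1 followed at 25.4 CPM per kilobase, apart from Hsp90aa1 and Dnaja1, and Dnaja1, Hsph1 and Dnajb1 lay together at 11.7, 10.9 and 10.1. The range of Hsph1 (5.09 to 20.1) reached into that of Hspb1 (16.1 to 36.5). Bag3 was at 6.69, and Hspa1b and Hspa1a were last at 1.37 and 0.964, apart from Bag3 but not from each other. In NI2 and NI3 the first 3 genes held the same order, at 554, 510 and 203 CPM per kilobase, but Hspa1b and Hspa1a, at 27.7 and 27.4, stood above Dnaja1 (21.2), Dnajb1 (16.5) and Bag3 (11.3), though the ranges of Hspa1a and Dnaja1 overlapped. Exon lengths sum all annotated transcripts, so the levels of Dnaja1 and Hsph1, with 8629 and 7266 bases, are low by this measure.

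None of the heat shock factors passed the test between tumors and islets. Hsf1, the main activator of the response, was at 35.0 to 46.1 CPM in tumors and at 42.1, 46.1 and 47.3 CPM in NI1, NI2 and NI3, with a log2 fold change of -0.17 (adjusted p = 0.561, edgeR). Hsf2, a partner of Hsf1, had a log2 fold change of 0.14 (adjusted p = 0.755) and Hsf4, a factor best known from the lens, of 0.69 (adjusted p = 0.406). Hsf4 was at 7.86 to 26.5 CPM in tumors and at 16.3, 6.17 and 6.79 CPM in NI1, NI2 and NI3, so NI2 and NI3 were below every tumor. With the library labelled NI1 left out, the log2 fold changes of Hsf1, Hsf2 and Hsf4 were -0.22, 0.15 and 1.28 (adjusted p = 0.461, 0.75 and 0.12, edgeR). With Hsbp1, a binding protein of Hsf1, and Hikeshi, which carries Hsp70 into the nucleus, 0 of 5 genes of this list were called with or without that library. With all 9 libraries, 1 of the 5 was lower at an unadjusted p under 0.05, as were 9.14% of all genes tested (edgeR).

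Other cytosolic chaperones and co-chaperones were described from a list of 34 genes, of which 33 were tested and 0 were called in either direction. At an unadjusted p under 0.05, 5 were lower and 2 higher, where 9.14% and 10.7% of all genes tested were (edgeR). The median log2 fold change of the list was -0.27. The 5 with the smallest p were Ahsa1, an activator of the Hsp90 ATPase (-0.88, adjusted p = 0.168), Bag6, which guards tail-anchored proteins (0.41, adjusted p = 0.199), the ribosome-bound Hsp70 Hspa14 (0.42, adjusted p = 0.219), Ahsa2 (-0.55, adjusted p = 0.230) and the J-domain gene Dnaja4 (-0.67, adjusted p = 0.234, edgeR). All tumors were above all islet libraries for Bag6, at 183 to 224 CPM against 171, 138 and 148 CPM. With the library labelled NI1 left out, the list's median was -0.43. Then 1 of the 33 was called lower, Ahsa1 (-1.16, adjusted p = 0.0322, edgeR), against 3% of all genes tested.

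The TRiC chaperonin, the cytosolic ring that folds actin and tubulin, had 0 of 8 subunits called. Its median log2 fold change was -0.30, and Cct3 (-0.55, adjusted p = 0.202) and Cct8 (-0.49, adjusted p = 0.222, edgeR) had the smallest p-values. Among the 7 organelle paralogs, 0 were called and the median was -0.68. At an unadjusted p under 0.05, 2 of the 8 subunits and 3 of the 7 paralogs were lower and 0 higher (edgeR). Of all genes tested, 9.14% were lower and 10.7% higher at that threshold. Every log2 fold change of both lists was below 0, as were 7377 of the 15532 over all genes tested. Hspa5, the Hsp70 of the endoplasmic reticulum, was at 406 to 1101 CPM in tumors and at 882, 1876 and 2230 CPM in NI1, NI2 and NI3 (log2 fold change -1.10, adjusted p = 0.193). Hsp90b1, the Hsp90 of the same compartment, did not pass the test (-0.77, adjusted p = 0.196, edgeR). It was lower in every tumor than in every islet library, as were 3.17% of the genes tested. The closest levels were nearly equal, at 1291 CPM in M2 and 1292 CPM in the library labelled NI1. NI2 and NI3 were at 1894 and 2155 CPM. For Hyou1, the Hsp110 protein of that compartment, the log2 fold change was -0.95 (adjusted p = 0.257), and for the mitochondrial chaperonin genes Hspd1 and Hspe1 it was -0.68 and -0.62 (adjusted p = 0.239 and 0.404, edgeR). Leaving out the library labelled NI1 gave list medians of -0.45 for TRiC and -0.93 for the organelle paralogs, with log2 fold changes of -1.40 for Hspa5, -0.96 for Hsp90b1 and -1.25 for Hyou1 (adjusted p = 0.0658, 0.091 and 0.118, edgeR), and 0 genes of either list passed.

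Immediate early genes, which are transcribed within minutes of a stimulus and also rise while tissue is taken apart, were mostly lower in tumors than in islets. Of the 14 listed, 9 fell in tumors and 0 rose, against 0.258% and 0% of all genes tested, with a median log2 fold change of -2.26 (edgeR). Without the library labelled NI1, 11 fell, against 3% of all genes tested, with a median of -2.57 (edgeR). Their summed level was 281 to 475 CPM in tumors, 989 in the library labelled NI1, 3370 in NI2 and 1840 in NI3, and none of the 14 was at 0 in any library. The AP-1 subunit gene Fos was at 1.41 to 3.92 CPM in tumors and at 155.9, 1045 and 440.4 CPM in NI1, NI2 and NI3 (log2 fold change -7.78, adjusted p = 0.000991). In the library labelled NI1, Fos thus lay far above every tumor, M6 at 1.41 CPM included. Fosb, of the same family (-6.75, adjusted p = 0.00372), Zfp36, which destabilizes mRNAs (-2.82, adjusted p = 0.00372), the nuclear receptor gene Nr4a1 (-2.88, adjusted p = 0.00401) and the zinc finger gene Egr1 (-4.19, adjusted p = 0.00711, edgeR) fell likewise. The same 5 genes had log2 fold changes of -8.22 to -3.09 without the library labelled NI1, all past the threshold. NI2 and NI3 lay above every other library for both the immediate early sum and the Hspa1 sum, with NI2 highest for the former and NI3 for the latter. The library labelled NI1 lay above every tumor for the immediate early sum and for Hspa1a. It was inside the range of the tumors for Hspa1b and for the Hspa1 sum. The part of the immediate early response in the Hspa1a and Hspa1b levels was not tested.

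**Figure D3:**
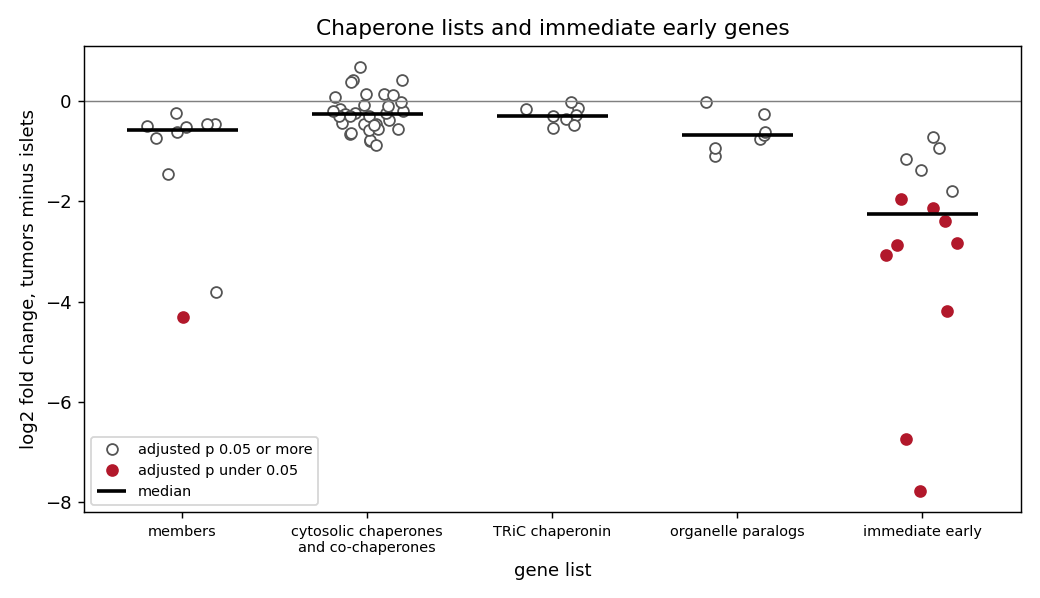
Log2 fold change in 6 tumors against 3 islet libraries (edgeR) for each tested gene of 5 lists, the 10 heat shock genes being called members, with filled points for an adjusted p under 0.05 and a bar at each list's median. The medians are -0.58 for the 10 heat shock genes, -0.27 for other cytosolic chaperones, -0.30 for TRiC, -0.68 for organelle paralogs and -2.26 for immediate early genes, and 1, 0, 0, 0 and 9 genes of the lists are filled.

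Markers of other cells also differed between the libraries. Acinar enzymes summed to 0.309 to 220 CPM in tumors, 326 in the library labelled NI1, 395 in NI2 and 5900 in NI3. At an unadjusted p under 0.05, 8 of 9 tested acinar genes were lower in tumors, against 9.14% of all genes tested (edgeR), with 0 passing the adjusted threshold. Of the 10 acinar markers, Ptf1a was at 0 in M1 to M5, Cela3b in M1 to M3, Prss2 in M1 and M3, Cpa1 and Clps in M2, Cela2a in M1 and Ctrb1 in M3. Lymphoid markers summed to 6.99 to 99.1 CPM in tumors and 141, 162 and 152 CPM in NI1, NI2 and NI3. Of these 8 markers, 2 fell in tumors at the adjusted threshold, against 0.258% of all genes tested, and 6 were lower at an unadjusted p under 0.05 (edgeR). Macrophage markers summed to 398 to 1090 CPM in tumors and 392, 278 and 163 CPM in NI1, NI2 and NI3, and fibroblast markers to 103 to 2050 against 120, 138 and 182 CPM, with 0 of 6 called in each. At an unadjusted p under 0.05, 6 of 6 macrophage and 4 of 6 fibroblast markers were higher in tumors, against 10.7% of all genes tested (edgeR). For β-cell, other endocrine, neuroendocrine, ductal, endothelial and erythrocyte markers 0 genes were called. Without the library labelled NI1, 3 of 8 lymphoid, 1 of 9 β-cell and 1 of 5 other endocrine markers tested were called lower (edgeR). In that fit 2 of 6 macrophage markers were called higher. Of all genes tested, 3% were called lower and 5.34% higher. NI2 and NI3 lay above every tumor for the acinar sum, as for the Hspa1 sum, and differed from each other more in the acinar sum. The part of these cells in the heat shock levels was not tested.

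The 5 genes outside the 10 whose log2(CPM + 1) followed the Hspa1 sum most closely over the 9 libraries were Pygo1 (Pearson r = 0.988), Cd28 (0.976), Flicr (0.975), Rpl19-ps11 (0.975) and Arhgap6 (0.970). All were low genes, and Pygo1, which encodes a Wnt pathway cofactor, was at 0.176 to 2.81 CPM in tumors and at 1.35, 11.4 and 11.8 CPM in NI1, NI2 and NI3. NI2 and NI3 were the highest libraries for each of the 5. The correlations are over libraries that fall far apart and are given as a description.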

How the data were processed

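RNA was isolated with the RNeasy Plus Mini Kit and sequenced as single-end 75 bp reads. According to the study's methods, the authors trimmed reads with Trimmomatic 0.38 and quantified transcripts with salmon 1.4.0 against mm10. They deposited estimated counts per gene as whole numbers, not scaled between libraries, although the table is called TPM. Annotation and the summing of transcripts to genes are not given in the sources used here. GENCODE for GRCm38 gave a symbol for 54094 of the 54347 identifiers, and 0.0121% of the counts fell on the other 253.

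The test set was the 15532 genes that reached 1 CPM in 3 or more of the 9 libraries. After TMM scaling, edgeR 4.0.16 (R 4.3.3) was fitted with its quasi-likelihood test. The 6 tumors formed 1 group against the islets, and tumor groups were compared in a fit of 3 groups. P-values were two-sided and Benjamini-Hochberg adjusted over all genes tested, at a threshold of 0.05. The standard error was the size of the log2 fold change divided by the square root of F. The floor of 3 counts covers counting error only, since reads carried no molecular identifiers.

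The 10 genes and all lists were chosen with earlier results of these data known. Besides the 10, the rule named Hsf1, Hsf2 and Hsf4, up to 5 genes per chaperone or immediate early list with the smallest p, the 5 genes most like the Hspa1 sum, and Cdk5r1. Hsbp1, Hikeshi, the acinar genes at 0 and Ins1 to Nkx6-1 were named in addition, as list members. Alternatives were DESeq2 1.42.0, limma-trend (limma 3.58.1, prior count 2), DESeq2 size factors, no filter, removal of mitochondrial genes, a fit of 3 groups, a replicate block, and each library left out in turn. Leaving out M6 and the library labelled NI1 together was added after the data were seen. The gene-wise fits were checked on simulated counts. Promoter windows came from RefSeq.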

Additional observations from a re-analysis of the deposited data

Results flagged for a closer look

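Of 11 measures (the 10 genes and the Hspa1 sum) examined in the 6 tumors, 1 held a library far from the others. Dnajb1 was at 37.9 CPM in M2 and at 30.2 to 32.0 CPM in the other 5 tumors, and the gap of M2 to its nearest neighbour was 0.74 of the whole range, above Dixon's critical value for 6 samples. Chance alone marks about 1 in 20 groups in this way.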

How the results depend on the processing

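Of 285 alternative values over 18 results, 235 kept their direction and their side of the threshold or moved little, and 0 reversed. All 10 log2 fold changes in tumors against islets stayed below 0 in each of the 16 alternatives. The number of the 10 genes called lower in tumors, 1 in the report, was 2 without a filter, 3 by DESeq2 (Hspa1a, Hspa1b and Hsph1), 0 by limma-trend, 3 without M6 and the library labelled NI1, and 0 to 6 when 1 library was left out. It was 0 without M1, M2, M3, M5, NI2 or NI3, 2 without M6 and 6 without the library labelled NI1. In functional tumors against islets it rose from 0 to 2 without a filter, by DESeq2 and without M6 and the library labelled NI1, and was 0 to 2 with 1 library left out. In non-functional tumors it rose from 0 to 1 without a filter, to 2 by DESeq2 and to 2 without M6 and the library labelled NI1, and was 0 to 2 with 1 library left out. In both cases the 2 came without the library labelled NI1. The log2 fold change of the Hspa1 sum was -4.03 with DESeq2 size factors (adjusted p = 0.0573), -3.44 by limma-trend (adjusted p = 0.0806) and -4.57 to -3.54 with 1 library left out. Of the other cytosolic chaperones, 2 were lower without M6 and the library labelled NI1, 0 to 1 with 1 library left out (1 without M6 and 1 without the library labelled NI1), and 1 was higher by DESeq2. The cause of these changes was not tested. Over all genes, DESeq2 called 493 lower and 770 higher, limma-trend 31 and 2, and the fit without a filter 98 and 6, against 40 and 0 in the report. The genes called lower numbered 461 without the library labelled NI1, 137 without M6, 520 without both of these, 70 without M4 and 6 to 24 without any other library.

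Tumors M1 to M3 and islets NI1 to NI3 share replicate numbers, but libraries with the same number did not deviate together (r = -0.05, 0.03 and -0.16). Whether they share more than a number cannot be told from so few libraries. On these 6 libraries, 0 of the 10 genes were lower with the replicate block and 0 without it, and 35 and 130 genes were called over all. The Hspa1a level of a tumor rested on 91 to 214 counts, and the islet group on 3 libraries.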
